A study of Mus musculus with 4 samples.

Results

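Ly6c2, Ly6g, Ly6a, Ly6e, Ly86, F13a1, Lyz1, Lyz2 and Fn1 are a set of monocyte-lineage and Ly6 surface genes. They were chosen by symbol and make up 9 of the 27179 genes in the deposited expression table. They were examined in 4 RNA-seq libraries of bone marrow leukemia cells from a mouse model of acute myeloid leukemia (AML), which compared wild-type (WT) with CD274-null leukemia-initiating cells (LICs). Both groups carried the MLL-AF9 fusion, delivered by retrovirus into Lin- fetal liver cells that were transplanted into lethally irradiated C57BL/6 mice. The labels state that the cells were sorted, and the study defined LICs as Mac-1+/c-Kit+ cells, but its methods describe the RNA for sequencing as taken from tissue. Whether the libraries held sorted cells only is therefore uncertain. The WT group held 2 libraries of the wild type genotype and the CD274-null group 2 libraries of the CD274-/- genotype. The labels give strain C57BL/6, an age of 6 weeks and the cell type LSC for every library. They do not say whether the libraries came from separate animals or from pools, so the p-values measure the spread between these 4 libraries, which may be technical. CD274 (PD-L1) is the surface ligand of the inhibitory receptor PD-1.

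The Ly6 genes encode small proteins that are tethered to the outer cell membrane by a lipid anchor, and many of them lie side by side on mouse chromosome 15. In marrow, high Ly6C marks classical monocytes and high Ly6G marks neutrophils, and the Gr-1 antibody used in flow cytometry of myeloid cells binds Ly6G and, less strongly, Ly6C. Lysozymes, which cut bacterial cell walls, are abundant in monocytes, macrophages and neutrophils, whereas coagulation factor XIII A and fibronectin are made by particular states of monocytes and macrophages.

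The sequences of these genes matter for their values, because near-identical copies can share short reads. Ly6c2 and its neighbour Ly6c1 had the same 117 bases in their second coding exon, whereas Ly6g differed from them at 29 positions and Ly6a at 25. The exons are given 5′ to 3′ on the coding strand (GRCm38), at chr15:75110511-75110627 (minus strand, exon 3) for Ly6c2, chr15:75047353-75047469 (minus strand, exon 3) for Ly6c1, chr15:75156694-75156810 (plus strand, exon 3) for Ly6g and chr15:74996452-74996568 (minus strand, exon 2) for Ly6a. Capitals mark the bases that differ from Ly6c2.
Ly6c2 and Ly6c1: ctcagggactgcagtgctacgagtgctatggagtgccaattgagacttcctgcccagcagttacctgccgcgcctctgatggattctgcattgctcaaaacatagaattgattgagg
Ly6g: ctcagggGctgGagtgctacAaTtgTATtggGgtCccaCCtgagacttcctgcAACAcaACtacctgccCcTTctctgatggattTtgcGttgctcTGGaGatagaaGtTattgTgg
Ly6a: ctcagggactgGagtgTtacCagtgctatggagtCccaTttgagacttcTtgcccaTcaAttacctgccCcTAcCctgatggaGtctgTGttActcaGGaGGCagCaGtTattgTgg

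Over the whole coding sequence, Ly6c2 was 97.7% identical to Ly6c1, 81.6% to Ly6a, 78.1% to Ly6g and 50.9% to Ly6e. The reads of this study averaged 50 bases. Of the 773 windows of 50 bases in the main Ly6c2 transcript, 252 (32.6%) also occurred in the main transcript of Ly6c1. Over all annotated transcripts of Ly6c2, 395 of 2733 windows (14.45%) occurred in another gene. How the authors assigned reads that match several genes is not given in the sources used here, so the division of reads between Ly6c2 and Ly6c1 is uncertain.

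The lysozyme genes, neighbours on chromosome 10, are the other near-identical pair. Their coding sequences were identical at 422 of 444 bases, and exon 2 differed at 6 of its 165 bases (96.4% identical). Exon 2 is shown for Lyz2 (chr10:117280641-117280805) and Lyz1 (chr10:117291029-117291193), both on the minus strand, with the bases of Lyz1 that differ from Lyz2 in capitals.
Lyz2: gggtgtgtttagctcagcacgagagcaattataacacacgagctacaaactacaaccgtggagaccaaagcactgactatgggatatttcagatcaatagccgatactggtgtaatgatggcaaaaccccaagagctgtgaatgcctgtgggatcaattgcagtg
Lyz1: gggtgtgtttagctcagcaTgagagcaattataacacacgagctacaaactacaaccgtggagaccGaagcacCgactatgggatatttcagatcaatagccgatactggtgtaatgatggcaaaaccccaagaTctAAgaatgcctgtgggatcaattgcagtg

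Windows of 50 bases shared between the lysozyme transcripts numbered 195, which was 16.1% of the windows of Lyz1 and 15.4% of those of Lyz2. In contrast, no window of Ly6e or Ly86 occurred in another gene's transcripts, and the share was 0.448% for Ly6g, 0.404% for F13a1 and 2.51% for Fn1. For Ly6a it was 19.0% over all of its annotated transcripts, while 1.43% of the windows of its main transcript occurred in that of Ly6c1. The 120 bases before the start of Lyz2 (chr10:117282273-117282392) and of Lyz1 (chr10:117292869-117292988), from RefSeq on GRCm38.p6, also differed at only 9 positions. They are given because the levels of these genes lay far apart, as described with the lysozymes below, and capitals again mark the bases of Lyz1 that differ.
Lyz2 promoter: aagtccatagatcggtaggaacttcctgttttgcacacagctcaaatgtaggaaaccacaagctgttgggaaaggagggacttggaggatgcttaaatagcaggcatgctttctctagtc
Lyz1 promoter: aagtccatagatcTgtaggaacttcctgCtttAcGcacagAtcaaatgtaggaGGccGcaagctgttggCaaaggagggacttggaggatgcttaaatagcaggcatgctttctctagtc

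The windows of 250 bases before the start were searched on both strands for 5 motifs in the 6 members with such a window (Ly6c2, Ly6g, Ly86, F13a1, Lyz1 and Lyz2). GAGGAA, the core bound by PU.1, a factor of myeloid differentiation, was present in Ly6c2, Ly6g and F13a1 and in 25.9% of 27025 genes. TTGCNNAA, a C/EBP form, was present in Ly6g and Lyz1 and in 10.8% of genes. TATAAA was present in Ly6g and in 14.3% of genes. The interferon motifs, ISRE (GAAA repeated after any 2 bases, 3.46% of genes) and GAS (TTCNNNGAA, 8.13%), were in none of the 6 windows. These matches describe the letters of the windows only.

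Values are FPKM (fragments scaled to the length of the gene and to the depth of the library), so levels can be set side by side between genes. The number of reads behind each value was recovered from the steps of the FPKM values, and gave at least 11048767, 9740856, 8452662 and 9520926 reads in WT 1, WT 2, CD274-null 1 and CD274-null 2. Between 16344 and 17038 genes were above 0 in each library. Spearman's rho across genes was 0.955 between the WT libraries, 0.957 between the CD274-null libraries and 0.944 to 0.954 between the groups, as a description, since genes are not independent replicates. Cd274, the deleted gene, measured 2.80 and 0.945 FPKM in the libraries labelled WT and 1.43 and 2.29 FPKM in those labelled CD274-null (118, 35, 46 and 83 reads). Its groups overlapped (log2 fold change 0.09), and a gene-level FPKM does not say which exons the reads came from, so this gene did not separate the labels. Libraries are therefore named by their labels throughout. Of the sort markers, Itgam (Mac-1) lay between 100.2 and 174 FPKM, and Kit was 6.59 FPKM in WT 1 against 16.2 to 19.5 FPKM in the other libraries.

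Each gene was compared with limma on log2(FPKM + 0.5) over the 13230 genes whose mean FPKM reached 0.5. A gene was called a candidate when its fold change exceeded 1.5 at an unadjusted p under 0.01, and p-values adjusted by Benjamini-Hochberg over all 13230 genes were used beside it. All 9 members passed the filter on low values. None of the 9 was a candidate, against a background of 3.63% of all tested genes (2.39% higher and 1.24% lower in the CD274-null group), and none had an adjusted p under 0.05 in limma (0.0756% of all tested genes). At an unadjusted p under 0.05 there were 3 of 9, namely Ly6g and Ly6e, which were higher in both libraries labelled CD274-null, and Fn1, which was lower, and voom on the recovered reads gave 0 candidates and 3 genes at that level. The background for that count was 13.7% (8.04% higher, 5.70% lower). There were 2 such members, Ly6g and Ly6e, under quantile normalization, equal medians, no filter on low values or eBayes without trend, 0 without moderation of the variance, 4 of 8 among genes with a mean of at least 5 FPKM (14.4% of all genes there) and 4 of 9 without WT 2 (16.3% of all tested genes). In 8 of 9 members the groups did not overlap, 6 of them higher and 2 lower in the CD274-null group, against 47.3% of all tested genes (25.6% higher and 21.8% lower), and in 5 of 9 after the libraries were scaled to equal medians (49.4% of all tested genes). The median log2 fold change of the 9 genes was 0.52, whereas that of all tested genes was 0.01.

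**Figure D1:**
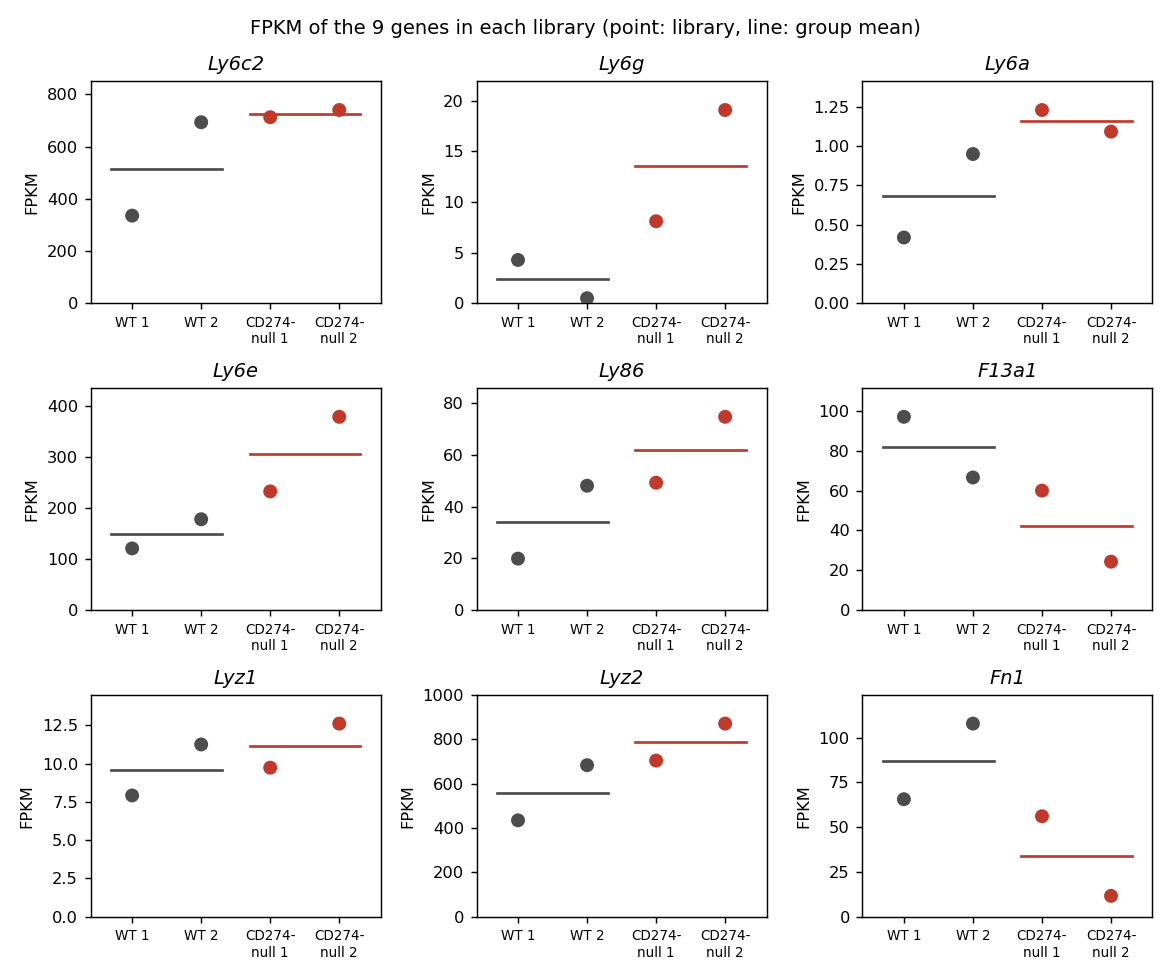
FPKM (vertical axis, linear from 0, own scale for each gene) of the 9 genes in the 4 libraries, with points for libraries and lines for group means. The CD274-null points lie above both WT points for Ly6c2, Ly6g, Ly6a, Ly6e, Ly86 and Lyz2 and below both for F13a1 and Fn1, while the Lyz1 groups overlap.

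Ly6c2, the monocyte Ly6C gene (NCBI gene 100041546, chr15:75108161-75112066, minus strand, GRCm38.p6), measured 335 FPKM in WT 1, 693 in WT 2, 713 in CD274-null 1 and 740 in CD274-null 2. These values rested on 1554, 2827, 2524 and 2952 reads and placed Ly6c2 among the most abundant transcripts, at the 98.8th to 99.5th percentile of the tested genes. WT 1 stood low, and the other libraries lay close together with WT 2 just below the CD274-null pair. The group means were 514 ± 253 (SD, n = 2) and 726 ± 19.5 FPKM (SD, n = 2), a log2 fold change of 0.59 (SE 0.38, 95% interval -0.34 to 1.52, limma adjusted p = 0.527). Without WT 1 the log2 fold change was 0.07, and without WT 2 it was 1.11. Ly6c1, with which Ly6c2 shares exon sequence, had a similar pattern at a far lower level, with 3.57 and 8.65 FPKM in WT and 8.65 and 7.07 FPKM in CD274-null libraries.

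Ly6g, the neutrophil surface gene (NCBI gene 546644, chr15:75155261-75159128, plus strand), measured 4.27 FPKM in WT 1, 0.485 in WT 2, 8.10 in CD274-null 1 and 19.1 in CD274-null 2. Both CD274-null libraries were higher than both WT libraries, and WT 2 stood far below the rest. The value in WT 2 came from 2 reads (exact Poisson interval 0.242 to 7.22 reads, counting error only, or 0.0587 to 1.75 FPKM), against 20, 29 and 77 reads in the other libraries. Ly6g had the widest range of the 9 genes, with its highest value 39.4-fold its lowest. The log2 fold change was 2.58 (SE 0.78, 95% interval 0.69 to 4.48, limma adjusted p = 0.296), with group means of 2.38 ± 2.68 and 13.6 ± 7.78 FPKM (SD, n = 2 each). Without WT 1 it was 3.72 and passed the candidate thresholds (limma adjusted p = 0.226, against 3.47% of all tested genes called in that fit), and without WT 2 it was 1.44.

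Ly6a, which encodes the stem cell antigen Sca-1 (NCBI gene 110454, chr15:74994877-74998031, minus strand), was close to the detection limit. It measured 0.418 and 0.949 FPKM in the WT libraries and 1.23 and 1.09 FPKM in the CD274-null libraries, from 4, 8, 9 and 9 reads. WT 1 was lowest and the groups did not overlap, but the exact Poisson intervals were wide (0.114 to 1.07 FPKM in WT 1 and 0.562 to 2.33 FPKM in CD274-null 1, counting error only). The log2 fold change was 0.52 (SE 0.44, 95% interval -0.53 to 1.58, limma adjusted p = 0.618), and 0.20 without WT 1.

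Ly6e, an interferon-inducible Ly6 gene with wide expression (NCBI gene 17069, chr15:74955025-74959904, plus strand), measured 121 and 178 FPKM in WT and 233 and 379 FPKM in CD274-null libraries. It rested on 3212, 4168, 4733 and 8682 reads, and none of its 50-base windows occurred in another gene. Both CD274-null libraries lay above both WT libraries, with CD274-null 2 highest. The group means were 149 ± 40.5 and 306 ± 103 FPKM (SD, n = 2 each) and the log2 fold change was 1.02 (SE 0.33, 95% interval 0.22 to 1.81, limma adjusted p = 0.306). With each library left out in turn it stayed between 0.66 and 1.37, the narrowest relative range among the members with an unadjusted p under 0.05.

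Within each library the Ly6c2 to Ly6g ratio sets the monocyte gene against the neutrophil gene. It was 78.6 in WT 1, 1429 in WT 2, 88.0 in CD274-null 1 and 38.8 in CD274-null 2. The groups overlapped, and the high value of WT 2 again rested on its 2 reads of Ly6g. On the log2(FPKM + 0.5) scale the difference between groups was -1.99 (CD274-null minus WT, exact permutation test, two-sided p = 0.667). With 2 libraries against 2, the smallest p this test can give is 0.333.

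The wider Ly6 family, proteins that share the Ly6 fold, had 37 measured genes, of which 15 were listed at 0 in all libraries and 11 were tested, with Ly6c2, Ly6g, Ly6a and Ly6e among them. No gene of the family was a candidate in limma or in voom, 2 had an unadjusted p under 0.05 (Ly6g and Ly6e), and 8 of 11 had a log2 fold change above 0. The median log2 fold change was 0.50, and 0.20 without WT 1. Ly6i, another gene of the family, was under the filter, with 0.0985 and 0.336 FPKM in WT and 0.258 and 0.114 FPKM in CD274-null libraries. Ly6c2 and Ly6e were the highest of the family in every library, followed by Plaur, the urokinase receptor gene (chosen after its values were seen), at 56.0 to 87.1 FPKM.

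**Figure D2:**
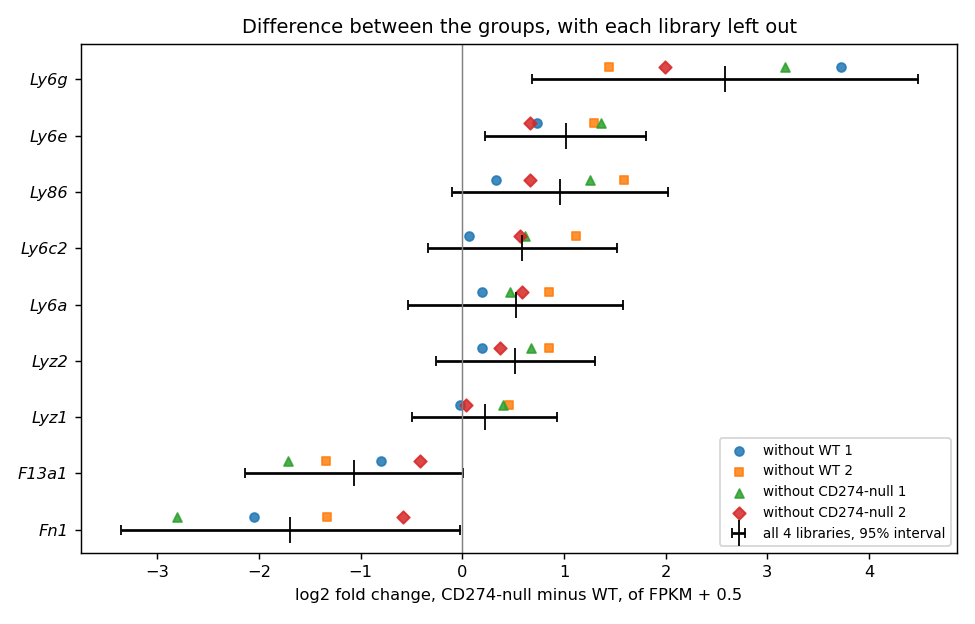
Log2 fold change of FPKM + 0.5 (horizontal axis, CD274-null minus WT) for the 9 genes, with the limma estimate and its 95% interval as black bars and the estimate without each library as coloured symbols. Only the intervals of Ly6g, Ly6e and Fn1 leave out 0, and the Fn1 estimate moves from -2.80 without CD274-null 1 to -0.58 without CD274-null 2.

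Ly86 encodes MD-1, the secreted partner that the receptor RP105 (Cd180) needs to reach the cell surface (NCBI gene 17084, chr13:37345345-37419036, plus strand). It measured 19.9 FPKM in WT 1, 48.1 in WT 2, 49.2 in CD274-null 1 and 74.7 in CD274-null 2, from 229, 488, 434 and 742 reads. WT 1 was lowest and CD274-null 2 highest, while WT 2 and CD274-null 1 were nearly equal. The log2 fold change was 0.96 (SE 0.44, 95% interval -0.11 to 2.03, limma adjusted p = 0.401). It was 0.33 without WT 1, and 1.59 without WT 2, where it passed the candidate thresholds (limma adjusted p = 0.159, against 4.79% of all tested genes called in that fit).

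Cd180, the receptor that MD-1 serves, had the same order of libraries at its ends, with 2.04 and 9.58 FPKM in WT and 6.56 and 14.2 FPKM in CD274-null libraries (log2 fold change 1.01, SE 0.69, limma adjusted p = 0.543). Its groups overlapped, and the log2 fold change was 0.017 without WT 1. Ly96 (MD-2), the paralogous partner of Tlr4, was 0.860 FPKM in WT 1 and 4.23 FPKM in WT 2, with both CD274-null libraries between them. Tlr4, the endotoxin receptor, ran the other way, with 11.6 and 6.28 FPKM in WT and 4.23 and 2.17 FPKM in CD274-null libraries (log2 fold change -1.35, SE 0.44, limma adjusted p = 0.306). Of 10 tested genes of the RP105 and Tlr4 pathway, 1 was a candidate (3.63% of all tested genes were), Cd14, the endotoxin co-receptor, which fell. It measured 57.4 and 39.6 FPKM in WT and 23.2 and 26.0 FPKM in CD274-null libraries (log2 fold change -0.94, limma adjusted p = 0.274). It was no candidate under quantile normalization, equal medians, no filter, eBayes without trend, no moderation or voom, which left none in the list. With all libraries 3 genes of the list had an unadjusted p under 0.05, each of them lower in the CD274-null libraries (5.70% of all tested genes). That number fell without WT 1 or either CD274-null library and rose without WT 2. The median log2 fold change was -0.32, but -0.39 without WT 1, -0.13 without WT 2, -0.28 without CD274-null 1 and -0.20 without CD274-null 2.

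F13a1 encodes the A subunit of coagulation factor XIII, a transglutaminase that cross-links fibrin (NCBI gene 74145, chr13:36867178-37050244, minus strand). It measured 97.0 and 66.6 FPKM in the WT libraries and 59.9 and 24.2 FPKM in the CD274-null libraries, from 4408, 2661, 2082 and 948 reads. Both CD274-null libraries were below both WT libraries, with CD274-null 2 lowest and CD274-null 1 close to WT 2. The group means were 81.8 ± 21.6 and 42.1 ± 25.2 FPKM (SD, n = 2 each), and the log2 fold change was -1.06 (SE 0.44, 95% interval -2.13 to 0.0040, limma adjusted p = 0.364). Without CD274-null 2 it was -0.42, and without CD274-null 1 it was -1.71. F13b, the gene of the carrier subunit, was listed at 0 in every library, and none of the 4 tested transglutaminase genes was a candidate in limma or had an unadjusted p under 0.05, whereas 1 was a candidate without WT 2.

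Fn1 encodes fibronectin, an adhesive matrix protein (NCBI gene 14268, chr1:71585473-71653280, minus strand). It measured 65.6 FPKM in WT 1, 108 in WT 2, 56.1 in CD274-null 1 and 11.7 in CD274-null 2, from 6311, 9128, 4125 and 965 reads. CD274-null 2 stood far below the rest, and CD274-null 1 was just below WT 1. The group means were 86.7 ± 29.9 and 33.9 ± 31.4 FPKM (SD, n = 2 each), and the log2 fold change was -1.69 (SE 0.69, 95% interval -3.36 to -0.021, limma adjusted p = 0.358). It was -0.58 without CD274-null 2, and -2.80 without CD274-null 1, where it passed the candidate thresholds (limma adjusted p = 0.517, against 1.78% of all tested genes called in that fit).

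None of the 8 tested fibronectin receptor genes was a candidate in limma, and 1 had an unadjusted p under 0.05, whereas without WT 2 there were 2 candidates and 3 genes at that level. The median log2 fold change was -0.014, but -0.56 without WT 1 and 0.63 without WT 2. The 1 gene, with all libraries, was Itgb1, the beta chain of the main fibronectin receptors, with 57.9 and 67.2 FPKM in WT and 43.9 and 35.0 FPKM in CD274-null libraries (log2 fold change -0.67, SE 0.22, limma adjusted p = 0.313). Itga5, the alpha chain that pairs with it in the classical receptor, measured 14.8 and 22.7 FPKM in WT and 26.4 and 27.8 FPKM in CD274-null libraries (log2 fold change 0.55). The log2 fold change of Itga4, the alpha chain of VLA-4, was -0.12.

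Lyz2, the lysozyme gene of macrophages and neutrophils (NCBI gene 17105, chr10:117277541-117282272, minus strand), measured 435 and 683 FPKM in WT and 704 and 871 FPKM in CD274-null libraries. It had the highest mean of the 9 genes (673 FPKM) and rested on 5314, 7351, 6581 and 9163 reads. WT 1 was lowest, CD274-null 2 highest, and WT 2 and CD274-null 1 nearly equal. The log2 fold change was 0.52 (SE 0.32, 95% interval -0.26 to 1.30, limma adjusted p = 0.510), and 0.20 without WT 1.

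Lyz1, the lysozyme gene best known from Paneth cells of the intestine (NCBI gene 17110, chr10:117287795-117292868, minus strand), measured 7.93 and 11.3 FPKM in WT and 9.74 and 12.6 FPKM in CD274-null libraries, from 116, 145, 109 and 159 reads. Its groups overlapped, and it varied least of the 9 genes, with its highest value 1.59-fold its lowest. The log2 fold change was 0.22 (SE 0.29, 95% interval -0.49 to 0.93, limma adjusted p = 0.770), and -0.020 without WT 1.

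The Lyz1 to Lyz2 ratio of FPKM was 0.0182 in WT 1, 0.0165 in WT 2, 0.0138 in CD274-null 1 and 0.0145 in CD274-null 2. Both WT ratios were above both CD274-null ratios, a log2 difference of -0.30 (CD274-null minus WT, exact permutation test, two-sided p = 0.333, the smallest this design can give). Thus Lyz2 held nearly all lysozyme transcripts in every library. The 50-base windows shared by both genes leave the small Lyz1 value uncertain. Of 8 related genes of the lysozyme family, 7 were listed at 0 in all libraries and none passed the filter.

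The 9 genes kept much the same order of levels in every library. Lyz2 and Ly6c2 were the top pair and exchanged places, with Ly6c2 above Lyz2 in WT 2 and CD274-null 1 and below it in the others. Ly6e ranked 3rd in each library. F13a1, Fn1 and Ly86, with means of 61.9, 60.3 and 48.0 FPKM, changed places among libraries and were not tested against each other. In CD274-null 2, Fn1 ranked 8th, below Ly6g and Lyz1. Lyz1 (mean 10.4 FPKM) and Ly6g (7.99 FPKM) also exchanged places, with Ly6g above Lyz1 only in CD274-null 2, where it also exceeded Fn1. Ly6a was lowest except in WT 2, where Ly6g was.

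The difference between groups was not spread evenly over the libraries. Of the 9 genes, 6 were lowest in WT 1 (Ly6c2, Ly6a, Ly6e, Ly86, Lyz1 and Lyz2), Ly6g was lowest in WT 2, and F13a1 and Fn1 were lowest in CD274-null 2. The highest value of 6 genes was in CD274-null 2. The median log2 fold change of the 9 genes was 0.20 without WT 1 and 0.85 without WT 2, and without CD274-null 2 none of them had an unadjusted p under 0.05 in limma.

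**Figure D3:**
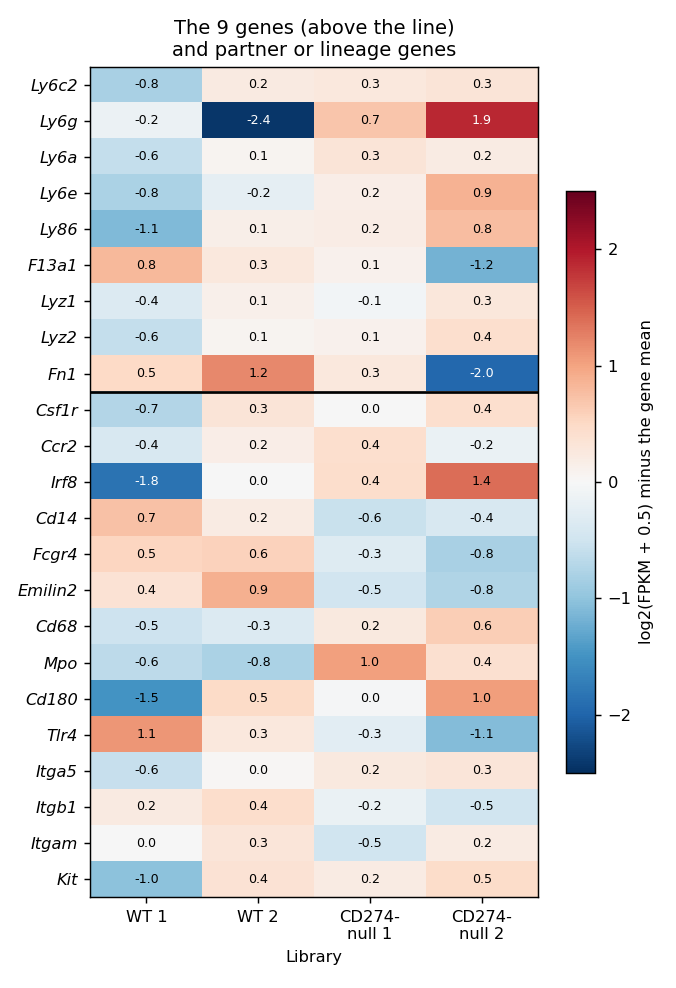
Heat map of log2(FPKM + 0.5) minus the mean of the gene over the 4 libraries (colour and printed number), with libraries in columns, the 9 genes above the line and partner or lineage genes below it. WT 1 is low for most of the upper rows, and CD274-null 2 holds the highest value of Ly6g and the lowest of Fn1 and F13a1.

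Genes whose pattern lay closest to a member were sought among 9277 genes with a mean of at least 5 FPKM, by the largest absolute difference of centred log2 values over the 4 libraries. Over the 8 members that reached that level, the distance to the closest gene ran from 0.013 for Lyz1 to 0.40 for Fn1, and closest genes are named for Ly6g and Fn1, which varied most and had the largest such distances. For Ly6g the closest gene was Il1b, encoding the inflammatory cytokine interleukin-1 beta, with a largest difference of 0.35 and levels of 3.32 and 0.444 FPKM in WT and 5.36 and 11.4 FPKM in CD274-null libraries. It was followed by Mir5107 (0.50) and Hoxa2 (0.54). For Fn1 the closest genes were Dpep2, a dipeptidase gene (0.40), Pla2g7, a phospholipase gene (0.48), and Hpse2 (0.51). With 4 libraries these distances are descriptions only.

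Other genes of monocyte differentiation did not share one direction. Of 46 tested monocyte genes, none of them among the 9 above, 4 were candidates, against 3.63% of all tested genes. Cd68, a lysosomal glycoprotein gene, rose from 51.5 and 58.1 FPKM in WT to 86.9 and 113 FPKM in CD274-null libraries (log2 fold change 0.85, limma adjusted p = 0.274). Cd14, given above, fell, as did Fcgr4, an IgG receptor gene of non-classical monocytes, from 27.3 and 28.1 to 14.8 and 10.4 FPKM (log2 fold change -1.12, limma adjusted p = 0.255). Emilin2, an extracellular matrix glycoprotein gene, fell from 34.1 and 49.8 to 18.8 and 15.5 FPKM (log2 fold change -1.25, limma adjusted p = 0.251). At an unadjusted p under 0.05 there were 10 genes, with 4 above WT (8.04% of all tested genes) and 6 below it (5.70%). The median log2 fold change was 0.14 with 24 of 46 above 0, but -0.072 with 20 above 0 without WT 1, and 0.37 with 29 above 0 without WT 2. With 1 library left out, Cd68 and Fcgr4 were candidates in none of the 4 fits, Cd14 was one without WT 2 and Emilin2 without WT 1. Without CD274-null 2 there was no candidate in limma among the 46 and 2 genes at an unadjusted p under 0.05, and without WT 2 there were 9 candidates, of the 4 only Cd14 among them.

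Of the 46 monocyte genes, 25 were lowest in WT 1, as Ly6c2 was, and 10 were highest there. Csf1r, Ccr2 and Irf8, defining genes of the lineage, were among those lowest in WT 1. Csf1r, the receptor for macrophage colony-stimulating factor, measured 19.7 and 41.7 FPKM in WT and 33.2 and 44.9 FPKM in CD274-null libraries (log2 fold change 0.42). Ccr2, the chemokine receptor of classical monocytes, measured 10.9 and 16.3 FPKM in WT and 19.6 and 12.9 FPKM in CD274-null libraries (log2 fold change 0.25). Irf8, a transcription factor of the monocyte and dendritic lineages, was 8.10 and 30.4 FPKM in WT and 41.6 and 81.4 FPKM in CD274-null libraries (log2 fold change 1.85, SE 0.62, limma adjusted p = 0.313), and its log2 fold change was 0.92 without WT 1 and 2.77 without WT 2. The Csf1r and Ccr2 groups overlapped and those of Irf8 did not.

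**Figure D4:**
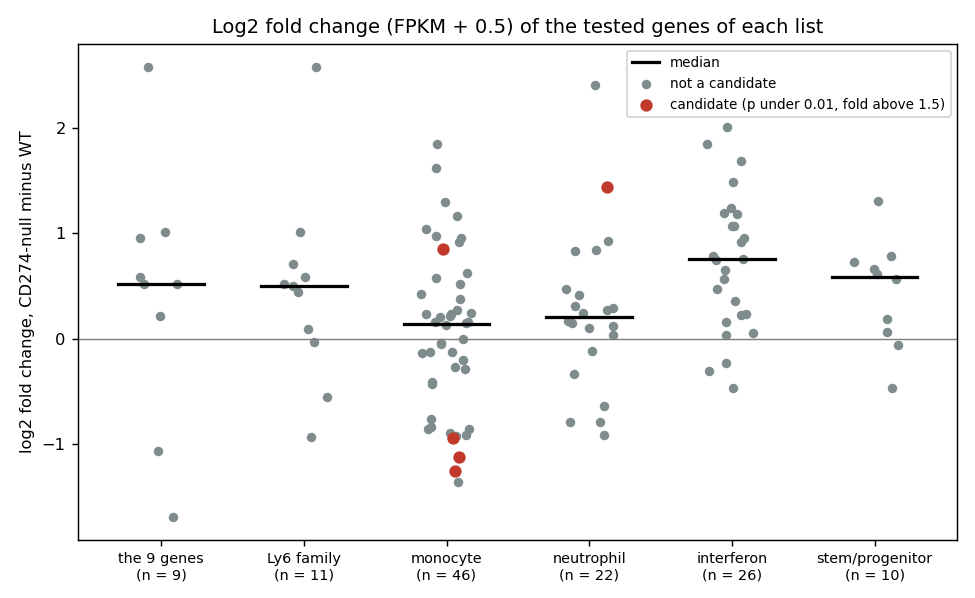
Log2 fold change of FPKM + 0.5 (vertical axis, CD274-null minus WT) for every tested gene of 6 lists (horizontal axis), with horizontal bars for list medians and red points for candidates. The monocyte candidates lie on both sides of 0, the median is 0.52 for the 9 genes and 0.75 for the interferon list, and neither of these lists holds a candidate.

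Neutrophil genes varied between libraries in part as Ly6g did. Of 22 tested neutrophil genes, 17 were lowest in WT 2, the library with the lowest Ly6g, but 12 were highest in WT 1, where Ly6g was only 4.27 FPKM. Their summed level was 53423 and 16979 FPKM in WT and 30224 and 41027 FPKM in CD274-null libraries. Much of it lay in S100a8 (14524, 3043, 6113.5 and 10624 FPKM) and S100a9 (16802, 3590, 6656 and 11155 FPKM), which were chosen after their values were seen. Only Mpo, the myeloperoxidase of early granules, was a candidate, and it rose from 444 and 403 FPKM to 1427 and 925 FPKM (log2 fold change 1.44, limma adjusted p = 0.251), but it was no candidate once any 1 library was left out. The median log2 fold change of the list was 0.21, but it was 0.96 without WT 1 and -0.51 without WT 2. In bulk samples, fewer cells of a type and less RNA per cell cannot be told apart, and the part of neutrophil content in the Ly6g result was not tested.

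Ly6a and Ly6e are interferon-inducible, so other interferon-stimulated genes were examined beside them. With all libraries and no covariates, none of 26 tested genes was a candidate in limma or in voom. Of the 26, 23 had a log2 fold change above 0 (median 0.75, and 1.05 without CD274-null 1). In limma, 7 had an unadjusted p under 0.05, all higher in the CD274-null libraries (8.04% of all tested genes). At that level there were 2 genes under quantile normalization, 2 with GC correction, 3 with equal medians, 0 without moderation and 2 without WT 1. CD274-null 2 was the highest library for 21 of 26, as it was for Ly6e, and the summed level was 157 and 179 FPKM in WT and 206 and 317 FPKM in CD274-null libraries. Without CD274-null 2 the median was 0.39 and none had an unadjusted p under 0.05 in limma. Their part in the Ly6e result was not tested.

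Markers of progenitors and of other cell types moved with some of these differences. The stem and progenitor list holds Kit, a sort marker of the LICs, so its genes are not markers of other cells only. Of 10 stem and progenitor genes, 8 were lowest in WT 1, the library lowest for 6 of the 9 genes, and the summed level was 377 and 569 FPKM in WT and 568 and 662 FPKM in CD274-null libraries. Myb (chosen after its values were seen), a progenitor transcription factor gene, held 192, 277, 318 and 368 FPKM of these sums. For this list the median log2 fold change was 0.59, with no candidate in limma and no unadjusted p under 0.05, but -0.11 without WT 1, and 1.16 with 3 candidates without WT 2. Of 5 tested plasma cell genes, 4 were candidates and rose (Jchain, Igkc, Igha and Ighm), and 2 to 4 were with 1 library left out. The background of candidates for these lists was 3.63% of all tested genes. Igkc, the kappa light chain gene, went from 8.64 and 7.98 FPKM in WT to 214 and 189 FPKM in CD274-null libraries. Of the other listed plasma cell genes, Sdc1, Prdm1, Mzb1 and Tnfrsf17 were under the filter, at no more than 0.998 FPKM in any library. Xbp1 had overlapping groups and a log2 fold change of 0.12. The summed level over the 9 listed genes was 200.4, 89.8, 524 and 571 FPKM, of which Xbp1 (chosen after its values were seen), a transcription factor of secretory cells, held 177 and 66.8 FPKM in WT and 133 and 106 FPKM in CD274-null libraries. Of 7 tested dendritic cell genes, the antigen presentation genes Cd74, H2-Aa and H2-Eb1 were candidates and rose (summed level of the list 55.1, 67.1, 131 and 103 FPKM). Flt3, Itgax, Bst2 and H2-Ab1 were not candidates, though all 7 had a log2 fold change above 0. The H2-Ab1 groups overlapped, with 10.5 and 12.3 FPKM in WT and 16.1 and 10.4 FPKM in CD274-null libraries. Cd209a, Xcr1, Clec9a and Siglech were under the filter. Nkg7, a cytotoxic granule gene, rose among 4 tested T and NK cell genes and held most of their summed level (32.4, 11.7, 67.2 and 85.7 of 33.8, 14.1, 74.2 and 88.0 FPKM). Cd3d, Cd3e, Cd3g, Cd4, Cd8a, Klrb1c and Ncr1 were under the filter, at no more than 0.884 FPKM in any library. Vcam1, an adhesion molecule gene, fell among 8 macrophage genes from 117 and 92.3 FPKM in WT to 53.7 and 59.8 FPKM in CD274-null libraries. In that list 3 of 8 log2 fold changes lay above 0, and Vcam1 held much of the summed level (196, 201, 131 and 156 FPKM). The macrophage list median was -0.17, and -0.33 without WT 1, -0.23 without WT 2, -0.42 without CD274-null 1 and -0.17 without CD274-null 2. With 1 library left out, the dendritic list kept candidates in each fit, but the T and NK cell and the macrophage lists each had none in more than 1 of those fits. No erythroid, megakaryocyte, mast cell or basophil, B cell or stromal gene was a candidate in limma with all libraries, but 2 erythroid genes were without WT 1, 1 B cell gene without WT 2 and 1 mast cell or basophil gene without CD274-null 1. The summed erythroid level was highest in WT 2 (3.15, 55.7, 4.92 and 0.589 FPKM). The part of these cells in the differences of the 9 genes was not tested.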

How the data were processed

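The 4 libraries, of sorted cells per the labels, were made with the TruSeq RNA v2 protocol and sequenced by the authors. According to the submitters' processing notes, CASAVA 1.8.2, TopHat2 2.0.12 and GRCm38 were used. The authors deposited FPKM values for 27179 genes by NCBI gene number; the FPKM program, gene lengths, strand setting and treatment of multiply matching reads are not given in the sources used here. Symbols matched 25275 genes. The 9 genes and all gene lists were chosen with earlier results of these data known.

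Genes whose mean FPKM reached 0.5 were fitted on log2(FPKM + 0.5) with limma 3.58.1 (lmFit, eBayes with trend) in R 4.3.3, 2 libraries against 2, without covariates. Fold changes are on that scale, which understates the change of low genes. A candidate had p under 0.01 and a fold change above 1.5. Whole reads (tolerance 0.001) were recovered for 17083 of 17083 genes above 0 in at least 2 libraries, and totals are lower bounds. On simulated data (13180 genes, 200 changed by 2 on the log2 scale), 95% of changed and 0.739% of unchanged genes were called for this comparison. Of the 9 genes, only Ly6g had a log2 fold change beyond 2 (2.58, SE 0.78), and it was not called with all libraries. How often smaller log2 fold changes would be called was not tested. Named were the 9 genes, candidates of each list, partners and defining genes, and the 3 closest patterns. Sequences were read from GENCODE transcripts and RefSeq tables (GRCm38) with Biopython 1.88, and 50-base windows of the main transcripts (Ly6c2 with Ly6c1, and the lysozymes) or of all transcripts of a gene were compared. Alternatives were the pseudocount, low-value filter, normalization, variance model, GC correction, replicate block, voom and leaving out each library.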

Additional observations from a re-analysis of the deposited data

How the results depend on the processing

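The 4 libraries limit all comparisons, and 1 library decided several. Leaving out each library in turn gave 0 to 1 candidates among the 9 genes, 0 to 1 in the Ly6 family, 0 to 9 among monocyte, 0 to 3 among neutrophil and 0 to 4 among interferon genes, and 147 to 634 of all 13230 genes (1.11% to 4.79%; 480 with all libraries). The lone library of a group was then assumed to vary like the other group. Over these 4 fits the log2 fold changes whose direction turned ran from -0.020 (without WT 1) to 0.46 for Lyz1, -0.037 (without WT 1) to 1.36 for Kit, -0.11 (without WT 1) to 0.95 for Csf1r, -0.14 (without WT 1) to 1.03 for Ly6c1, -1.15 to 0.65 (without WT 2) for Ly96, -0.45 to 0.21 (without WT 2; 0.03 without CD274-null 2) for Itga4, -0.64 to 0.068 (without CD274-null 1) for Itgam, -0.043 (without CD274-null 1; -0.03 without WT 1) to 0.54 for Ccr2, and -0.51 (without WT 2; -0.18 without CD274-null 2) to 0.68 for Cd274. Cd274 was -0.0026 under quantile normalization. Monocyte candidates numbered 2 under quantile normalization, 2 with equal medians, 2 with voom on recovered reads and 0 without moderation of the variance, where neutrophil candidates numbered 0 and all candidates 170. Without the filter on low values there were 1 Ly6 family and 0 neutrophil candidates. With equal medians the groups did not overlap in 5 of the 9 genes. The causes were not tested.

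Libraries share replicate numbers 1 and 2, but deviations of same-numbered libraries did not go together (correlation -0.015) and the labels name no shared batch. With the replicate block there were 4 candidates among the 9 genes (Ly6g, Ly6e, Ly86 and F13a1), 2 in the Ly6 family, 2 neutrophil and 3 interferon candidates, and with GC correction and the replicate block 3, 1, 1 and 2. The block also gave 5 of the 9 genes an unadjusted p under 0.05 (13.3% of all tested genes), 2 RP105 and Tlr4 pathway candidates (Cd14 and Tlr4), 1 stromal and 1 stem and progenitor candidate. The share of candidates among all tested genes was 3.98% with the block and 2.92% with GC correction and the block. No alternative gave an adjusted call among the 9 genes, and the directions of the 8 members other than Lyz1 held in every alternative run. The groups of these 8 did not overlap, so leaving out 1 library could not turn their direction. Changes of the filter, variance model or block leave the estimate itself as it was, so the held directions are no separate evidence.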
